A study of Mus musculus with 8 samples.

Results

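Collagen hydroxylases, lysyl oxidases and the collagen chaperone gene Serpinh1 were examined in the tibial plateau of Anp32a knockout and wild-type mice. They were 10 listed genes, chosen by function, and every probe set whose symbol in the deposited table equalled one of them was taken. This gave 16 probe sets of 9 genes, out of 45037 probe sets and 20666 genes with a symbol. The tenth gene, Loxl2, is not analysed here. The 8 arrays, 1 per mouse, held 4 samples of wild-type C57BL/6 mice and 4 of mice labelled ANP32A KO, all 8 weeks old. The labels name no strain for the knockout mice and do not say which part of Anp32a was deleted. RNA came from articular cartilage taken in 1 piece with the bone under it, so each sample mixed cartilage and bone. In such bulk tissue, fewer cells of a type and less RNA per cell cannot be told apart.

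Collagen chains are modified inside the endoplasmic reticulum before they are secreted. Prolyl 4-hydroxylases hydroxylate proline residues, which lets the triple helix hold at body temperature, and lysyl hydroxylases hydroxylate lysine residues, which later take part in crosslinks. Serpinh1 (HSP47) binds the folded triple helix and escorts it to the Golgi. Outside the cell, lysyl oxidases convert lysine and hydroxylysine side chains to reactive aldehydes, from which the covalent crosslinks of cartilage and bone collagen form. Levels below are log2 RMA values, means are given ± SD with n = 4 per genotype, and differences are knockout minus wild type on the log2 scale with 95% intervals from limma.

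The targeted gene and the tissue markers were read first. One of the 3 Anp32a probe sets read 9.88 ± 0.08 in wild type and 4.60 ± 0.49 in knockout, where it was called absent on all 4 arrays (limma adjusted p = 5.9e-06). The other 2 were present on all 8 arrays and differed by -0.51 and -0.45 (limma adjusted p = 0.0555 and 0.0641). All 8 chondrocyte markers, among them Col2a1 and Acan, and 7 of 8 bone cell markers (Bglap had no probe set under that symbol) were present on every array. So were the 10 skeletal muscle and 7 erythroid markers. Muscle markers lay low on knockout 2 and knockout 3, where the list mean was -0.98 and -0.50 after centring on the 8 arrays. It was 0.04 and 0.23 on the other knockout arrays and 0.25 to 0.39 in wild type. Median differences were 0.88 for erythroid, 0.68 for B cell, 0.38 for osteoclast, 0.27 for neutrophil, 0.21 for bone cell and 0.05 for chondrocyte markers. They were -0.06 for endothelium, -0.17 for adipocyte, -0.18 for tendon and -0.58 for muscle markers. No marker had a limma adjusted p under 0.05.

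None of the 16 member probe sets differed between the genotypes in the limma test with Benjamini-Hochberg adjustment over all probe sets at 0.05, where 0.0533% of all probe sets passed (0.02% higher and 0.0333% lower). The median of their differences was -0.01, with 7 above 0 and 9 below 0, beside a median of 0.01 over all probe sets. This balance depended on the arrays used. Without knockout 2 and knockout 3, 14 of the 16 lay below 0 (median -0.15), and with the muscle list mean as a covariate also 14 (median -0.24). The median over all probe sets was 0.01 in both. Knockout 2, lowest in muscle markers, was also the array where the mean of the 16 was highest (0.28 after centring), with wild type 2 next (0.17). The settings are therefore not independent of the members' own values. Without wild type 2 and knockout 2 together, 11 of the 16 lay below 0 (median -0.03). What lay behind these shifts was not tested. None of the 16 passed in any of these settings. At an unadjusted p under 0.05 there was 1 of 16, the dimmest Lox probe set, against 18.3% of all probe sets (9.53% higher and 8.74% lower). It was also the only one of the 16 whose groups did not overlap, against 9.42% of all probe sets. Of the 16 probe sets, 13 were present on all 8 arrays. Leaving out knockout 4 raised the calls over the whole table from 24 to 3579 probe sets (7.95%), and none of the 16 was among them.

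**Figure D1:**
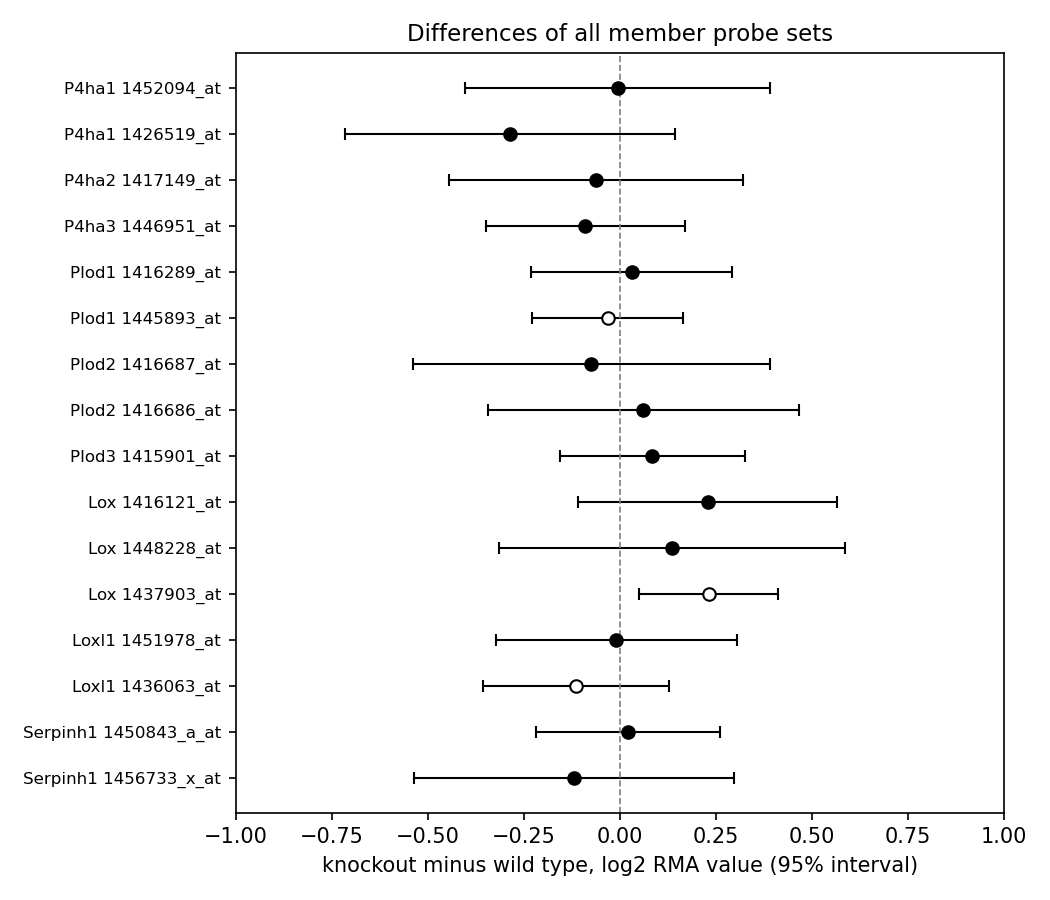
Difference between the genotypes (x axis, knockout minus wild type in log2 RMA value, bars are 95% intervals from limma) for the 16 probe sets of the 9 genes. Filled points were present on all 8 arrays, open points were not; only the interval of the dimmest Lox probe set (0.05 to 0.41) lies away from 0, and that probe set did not pass after adjustment.

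Among the prolyl 4-hydroxylase alpha subunits, P4ha1 encodes the main catalytic subunit of most tissues. Its brighter probe set read 10.86, 11.35, 11.004 and 10.85 in wild types 1 to 4 and 10.59, 11.48, 10.91 and 11.05 in knockouts 1 to 4. The groups overlapped, with both the lowest and the highest value in the knockout, and the array numbered 2 was the highest of each genotype. The difference was -0.01 (-0.40 to 0.39, limma adjusted p = 0.991). Its dimmer probe set averaged 8.26 ± 0.32 in wild type and 7.98 ± 0.35 in knockout, a difference of -0.29 that was the most negative of the 16 (-0.72 to 0.14, limma adjusted p = 0.475). The P4ha1 probe sets thus differed from each other in their estimates, and both intervals held 0.

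P4ha2 encodes the alpha subunit known for its high expression in chondrocytes and osteoblasts. It read 10.75, 11.31, 10.90 and 10.87 in wild type and 10.67, 11.38, 10.65 and 10.89 in knockout. As for P4ha1, wild type 2 and knockout 2 stood above the other 6 arrays. The difference was -0.06 (-0.44 to 0.32, limma adjusted p = 0.896), an interval of 0.735-fold to 1.25-fold. With the chondrocyte list mean as a covariate it was -0.22 (-0.35 to -0.08, unadjusted p = 0.00691), with a limma adjusted p of 0.183. In that setting the dimmer P4ha1 probe set read -0.44 (-0.70 to -0.18, unadjusted p = 0.00401, limma adjusted p = 0.173). There 3 of the 16 probe sets had an unadjusted p under 0.05, beside 8109 of all 45037. P4ha3, the third alpha subunit, read 7.15, 7.28, 7.27 and 6.99 in wild type and 6.86, 7.40, 7.04 and 7.03 in knockout. It was present on all 8 arrays, its groups overlapped, and it differed by -0.09 (-0.35 to 0.17, limma adjusted p = 0.747).

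Several members are known in other cells as targets of hypoxia-inducible factor (HIF), which binds the letters ACGTG or GCGTG. These letters were searched for in the 250 bases before the promoter start given by RefSeq (6 of the 10 genes, GRCm38.p6). For P4ha1 and P4ha3 this start is not the annotated start of the gene. No window was available for Plod2, Lox, Loxl1 and Loxl2, so these were not searched. ACGTG or GCGTG was found on either strand in 5 of the 6, all except P4ha3, against 38.6% of 32817 promoter windows. Both letter strings were found in 3 of the 6 (P4ha1, P4ha2 and Plod3), against 6.1% of all windows. Of other letters searched for, the GC box GGGCGG was found in 5 of the 6, against 32.7% of all windows. CCAAT was found in 1 of the 6, against 33.8%. A share above that of all windows was thus not particular to the HIF letters. The windows of 3 members are shown as examples, 1 from each role that has a window: a prolyl 4-hydroxylase, a lysyl hydroxylase and the chaperone. Capitals mark ACGTG and GCGTG on either strand and, in P4ha2, the heat shock element letters TTCNNGAA, which 7.2% of all windows hold and which overlaps no other marked letters. The P4ha2 window is chr11:54100674-54100923, plus strand, the Plod3 window is chr5:136986769-136987018, plus strand, and the Serpinh1 window is chr7:99353240-99353489, minus strand.
P4ha2: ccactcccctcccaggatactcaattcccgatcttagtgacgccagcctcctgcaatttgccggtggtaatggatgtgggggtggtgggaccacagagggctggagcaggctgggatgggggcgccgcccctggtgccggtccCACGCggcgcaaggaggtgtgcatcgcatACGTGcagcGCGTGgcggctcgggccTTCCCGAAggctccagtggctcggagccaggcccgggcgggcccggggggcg
Plod3: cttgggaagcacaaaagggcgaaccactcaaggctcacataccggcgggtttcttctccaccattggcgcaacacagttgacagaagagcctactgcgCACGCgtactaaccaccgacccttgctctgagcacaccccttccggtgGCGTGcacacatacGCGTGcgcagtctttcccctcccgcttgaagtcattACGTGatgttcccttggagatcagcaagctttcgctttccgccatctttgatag
Serpinh1: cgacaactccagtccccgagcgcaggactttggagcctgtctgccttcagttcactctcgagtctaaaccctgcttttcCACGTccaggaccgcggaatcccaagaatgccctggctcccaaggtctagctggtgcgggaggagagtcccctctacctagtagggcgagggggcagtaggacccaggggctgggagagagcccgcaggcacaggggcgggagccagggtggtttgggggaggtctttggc
Counted back from the gene's start, the marked letters of P4ha2 begin at -107, -78, -69 and -52, those of Plod3 at -152, -104, -90 and -54, and the single match of Serpinh1 at -171. Serpinh1 is known as a heat shock gene, and neither GAANNTTC nor TTCNNGAA is among the letters of its window. A match describes these letters and is not a measured binding site.

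**Figure D2:**
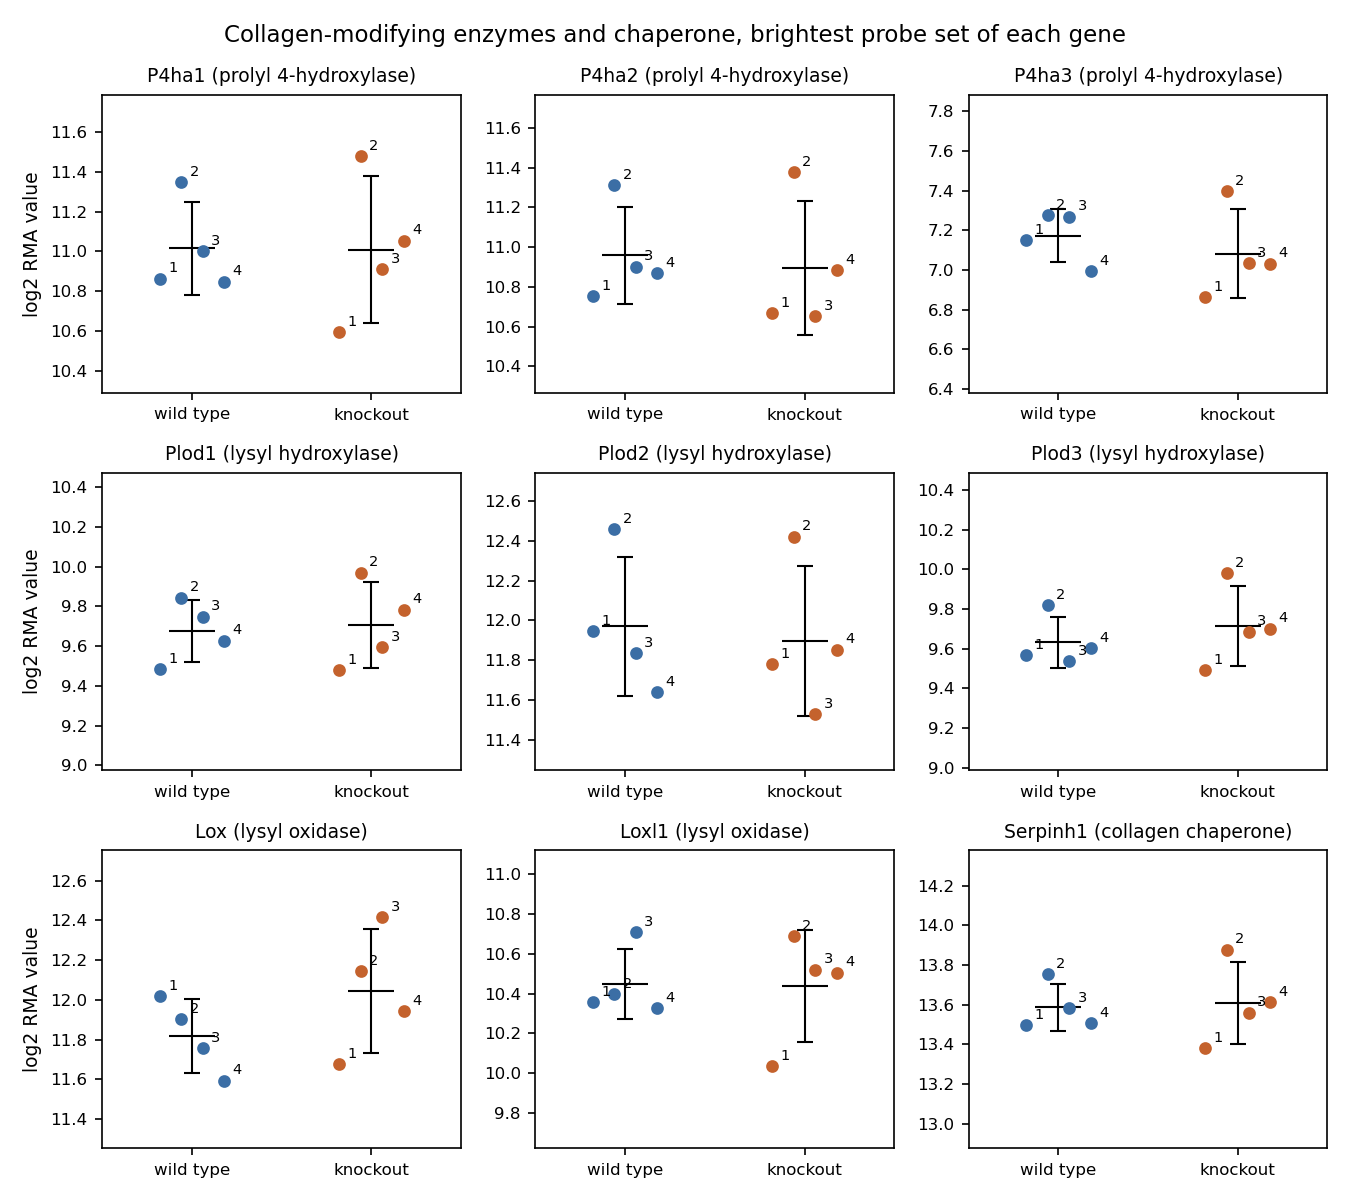
Log2 RMA value (y axis, each panel spans the same height) of the brightest probe set of each of the 9 genes in 4 wild-type and 4 knockout samples. Points are arrays with their number, and bars are mean ± SD; the groups overlap in every panel, and arrays 2 of both genotypes are the highest for P4ha1, P4ha2, P4ha3, Plod1, Plod2, Plod3 and Serpinh1.

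Plod1, the lysyl hydroxylase whose loss causes the kyphoscoliotic form of Ehlers-Danlos syndrome in humans, read 9.48, 9.84, 9.75 and 9.63 in wild type and 9.48, 9.97, 9.59 and 9.78 in knockout. Knockout 1 was the lowest and knockout 2 the highest array, with the wild types between, and the difference was 0.03 (-0.23 to 0.29, limma adjusted p = 0.929). Its second probe set was called present on none of the 8 arrays and differed by -0.03.

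Plod2 encodes the telopeptide lysyl hydroxylase, which sets how many stable pyridinoline crosslinks can form. Its brighter probe set had the widest range over the 8 arrays among the brightest probe sets of the 9 genes, 0.93 log2 or 1.91-fold, while the dimmer P4ha1 and the middle Lox probe set ranged over 1.10 and 0.97. It read 11.95, 12.46, 11.84 and 11.64 in wild type and 11.78, 12.42, 11.53 and 11.85 in knockout. Wild type 2 and knockout 2 lay close together and above the other 6 arrays. Against that spread the genotype difference was -0.07 (-0.54 to 0.39, limma adjusted p = 0.898). The dimmer probe set gave 0.06 (-0.34 to 0.47, limma adjusted p = 0.906), the opposite sign, and both intervals held 0.

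Plod3 encodes a lysyl hydroxylase that also transfers sugars to hydroxylysine. It read 9.57, 9.82, 9.54 and 9.60 in wild type and 9.49, 9.98, 9.69 and 9.70 in knockout. Knockout 2 was the highest and knockout 1 the lowest of all 8, so the wild-type values lay inside the knockout range. The difference was 0.08 (-0.16 to 0.32, limma adjusted p = 0.747).

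The chaperone gene Serpinh1 read 13.50, 13.76, 13.58 and 13.51 in wild type and 13.38, 13.88, 13.56 and 13.61 in knockout by its brighter probe set. Again array 2 was the highest of each genotype, and the wild-type values lay inside the knockout range. The difference was 0.02 (-0.22 to 0.26, limma adjusted p = 0.946), an interval of 0.86-fold to 1.2-fold. The dimmer probe set, also present on all 8 arrays, gave -0.12 (-0.54 to 0.30, limma adjusted p = 0.8), an interval of 0.69-fold to 1.23-fold.

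Lox, the founding lysyl oxidase, had the highest estimate among the brightest probe sets. It read 12.02, 11.90, 11.76 and 11.59 in wild type and 11.68, 12.15, 12.42 and 11.94 in knockout. The order of the arrays was not that of the hydroxylases: knockout 3 was the highest and wild type 4 the lowest. Knockout 1 lay below 3 of the 4 wild types. The difference was 0.23 (-0.11 to 0.57, 1.17-fold, limma adjusted p = 0.469), and the next Lox probe set gave 0.14 (-0.32 to 0.59, limma adjusted p = 0.789). With the skeletal muscle list mean as a covariate the brightest Lox probe set read -0.01.

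The dimmest Lox probe set read 4.57, 4.52, 4.56 and 4.37 in wild type and 4.57, 4.80, 4.85 and 4.72 in knockout. It was called present on 1 array of each genotype, so it lay near background. Its groups were parted by the narrow gap between wild type 1 and knockout 1 (4.566 and 4.568), and the difference of 0.23 (0.05 to 0.41) did not pass (unadjusted p = 0.0175, limma adjusted p = 0.187). All 3 Lox probe sets had knockout 3 as the highest and wild type 4 as the lowest array.

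Loxl1 encodes the lysyl oxidase known for its role in elastic fibres. It lies on chromosome 9 as Anp32a does, with 29 protein-coding genes between them in the GRCm38.p6 annotation, and Plod2 lies on the same chromosome with 212 between. Loxl1 read 10.36, 10.40, 10.71 and 10.32 in wild type and 10.03, 10.69, 10.52 and 10.51 in knockout. The highest value was that of wild type 3 and the lowest that of knockout 1, and the difference was -0.01 (-0.32 to 0.30, limma adjusted p = 0.983). Its second probe set, absent on all 8 arrays, gave -0.12 (limma adjusted p = 0.636).

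By the median, the members' spread within genotypes was larger than that over all genes, and their genotype difference was smaller. All genes here include 5375 called absent on every array, whereas the 9 members were present on all. The SD within genotypes had a median of 0.235 over the 9 brightest probe sets, beside 0.127 over all genes, while the median size of the genotype difference was 0.0624, beside 0.0955. Knockout 2 was the highest array for 6 of the 9 genes and the second highest for the other 3, and it was the highest for 18.3% of all genes. Wild type 2 was the highest or second highest for 7 of the 9, all except Lox and Loxl1. Knockout 1 was the lowest array for 6 of the 9. Without wild type 2 and knockout 2, left out together after their values were seen, none of the 16 probe sets passed and the differences ran from -0.29 to 0.22.

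Chondrocyte markers were high on the same arrays. Their list mean was 0.45 on knockout 2 and 0.20 on wild type 2 relative to the mean of all 8 arrays, and -0.21 to 0.08 on the other 6. Across the 8 arrays P4ha2 followed this mean with Pearson's r = 0.908 (exact permutation p = 0.0025), Plod3 with 0.907 (0.00434), Serpinh1 with 0.889 (0.00397), Plod1 with 0.882 (0.00141) and P4ha1 with 0.868 (0.00367). Each of these had an adjusted exact permutation p of 0.0234 over 27 relations, which were chosen after the values were seen (9 genes against the chondrocyte, bone cell and muscle lists). For Plod2 r was 0.824 and for P4ha3 0.635 (adjusted exact permutation p = 0.079 and 0.218).

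By rank these relations were weaker, with Spearman's rho of 0.762, 0.714, 0.738, 0.810 and 0.643 for P4ha2, Plod3, Serpinh1, Plod1 and P4ha1 (exact permutation p = 0.0368, 0.0576, 0.0458, 0.0218 and 0.0962, adjusted 0.259 for the first 4 and 0.371 for P4ha1). For Plod2 and P4ha3 rho was 0.524 and 0.333 (exact permutation p = 0.197 and 0.428). Without knockout 2 and wild type 2, the arrays farthest from the median of the list mean, r fell to 0.513 for P4ha2, 0.436 for Plod3, 0.375 for Serpinh1, 0.679 for Plod1, 0.372 for P4ha1 and 0.149 for Plod2, and P4ha3 read -0.249. The relations therefore rest mainly on those 2 arrays.

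Lox and Loxl1 gave r = 0.178 and 0.386 with the chondrocyte mean (exact permutation p = 0.665 and 0.349) and rho of -0.0952 and 0.119 (exact permutation p = 0.84 and 0.793). Without the same 2 arrays r was -0.239 and 0.0855. Among the chondrocyte, bone cell and muscle lists, the r of largest size for Lox was that with the bone cell list, 0.732 (exact permutation p = 0.038, adjusted 0.146). Its rho was 0.738 (exact permutation p = 0.0458, adjusted 0.259), and r read 0.504 without knockout 2 and knockout 3. With the muscle list r was nearly as large, -0.699 (exact permutation p = 0.0566, adjusted 0.17; rho -0.714, exact permutation p = 0.0576, adjusted 0.259), and -0.0996 without the same 2 arrays. These relations were not particular to the lysyl oxidases. Plod3 gave r = 0.708 with the bone cell list (exact permutation p = 0.0477, adjusted 0.161) and -0.674 with the muscle list (exact permutation p = 0.0657, adjusted 0.177). Loxl1 gave 0.291 with the bone cell list (exact permutation p = 0.488, adjusted 0.55). The bone cell list mean itself lay at -0.25 to -0.05 in wild type and -0.01 to 0.34 in knockout. Whether the lysyl oxidases and the hydroxylases differ in their relation to these markers was not tested. The other marker lists were not correlated with the members. Those of neutrophils, B cells and osteoclasts had their highest mean on knockout 3 (0.43, 0.92 and 0.39 after centring), the array where Lox was also highest.

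**Figure D3:**
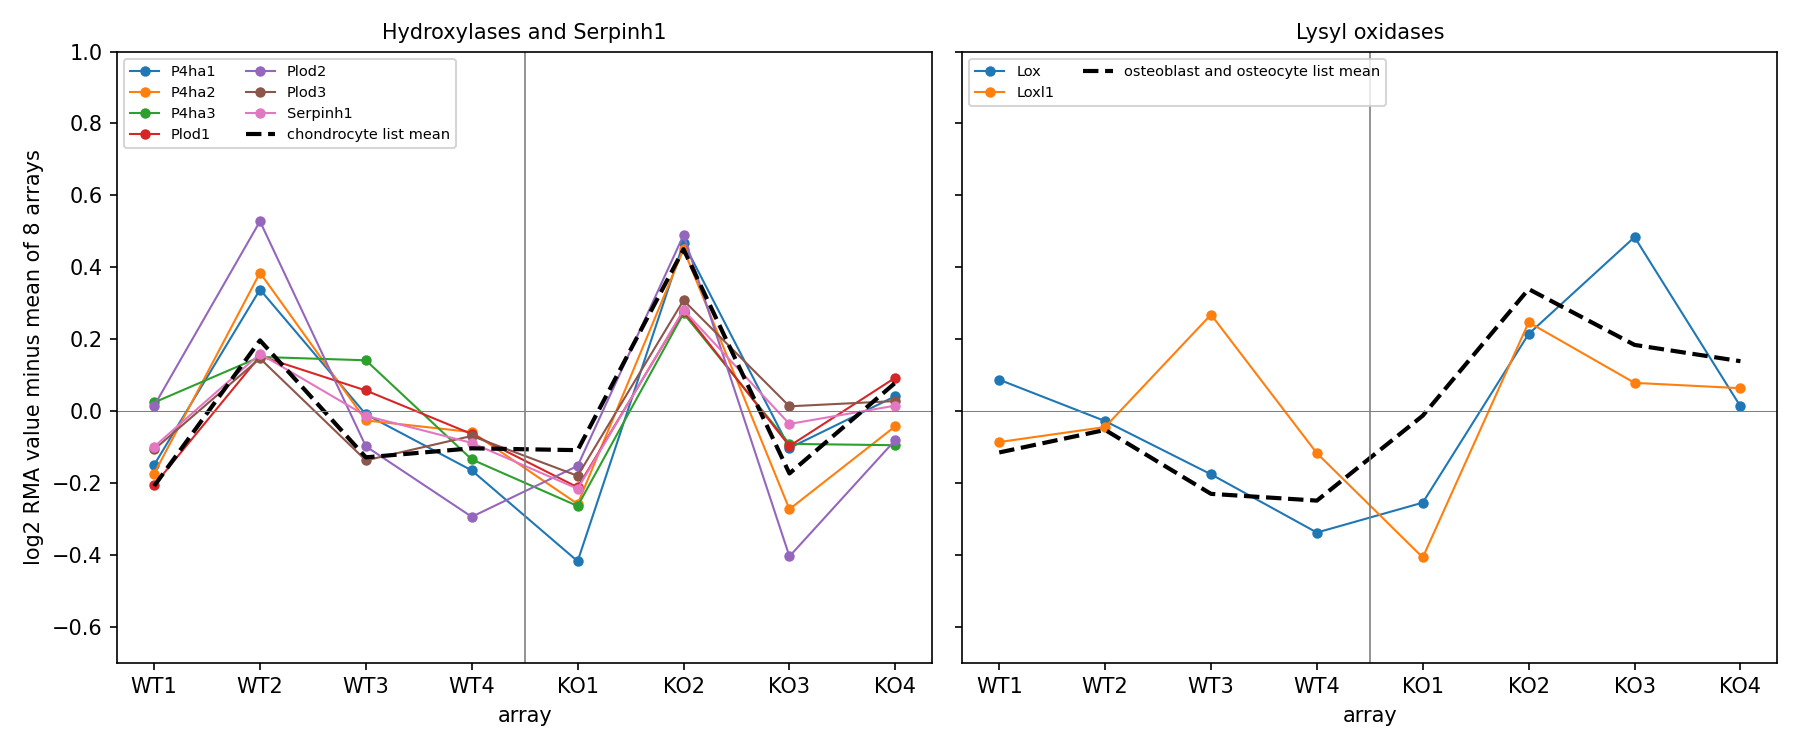
Log2 RMA value minus the mean of the 8 arrays (y axis) for the brightest probe set of each gene on each array (x axis, WT wild type, KO knockout), with lines joining the values of a gene. Dashed lines are the mean of the chondrocyte markers (left, 0.20 on WT2 and 0.45 on KO2) and of the osteoblast and osteocyte markers (right); the 7 genes on the left peak on WT2 and KO2, whereas Lox peaks on KO3 and Loxl1 on WT3.

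Genes of most like pattern were sought for the 3 members whose brightest probe sets had the widest range, by the root mean square difference of mean-centred log2 values over the 8 arrays among 11630 genes present on all arrays. For Plod2 the nearest was Col10a1 (0.0528), the collagen of hypertrophic chondrocytes, followed by Rab39b (0.0579) and 2900054C01Rik (0.0631). Col10a1 read 12.91, 13.37, 12.69 and 12.63 in wild type and 12.78, 13.43, 12.53 and 12.84 in knockout, which places arrays 2 on top and knockout 3 at the bottom as for Plod2. For P4ha1 the nearest were Msmo1 (0.0499), an enzyme of cholesterol synthesis, Creld2 (0.0507), a gene induced by endoplasmic reticulum stress, and Fkbp14 (0.0508), a prolyl isomerase that acts on collagen. For Lox they were the serine synthesis gene Psat1 (0.0454), Rassf4 (0.0570) and the inflammatory caspase gene Casp1 (0.0582). No gene was named by more than 1 of the 3 members.

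Partners of the members in collagen maturation showed no call either. Of 25 listed genes, 24 were measured and none passed over all probe sets in limma, where 0.0532% of all genes passed, with 18 differences above 0, 6 below 0 and a median of 0.08 beside 0.01 over all genes. At an unadjusted p under 0.05 there were 3 of 24, 2 higher and 1 lower, against 19.6% of all genes (10.3% higher and 9.35% lower). Tmem38b, which encodes an endoplasmic reticulum potassium channel whose loss causes osteogenesis imperfecta in humans, read 10.63, 10.48, 10.63 and 10.61 in wild type and 10.23, 9.52, 9.60 and 10.32 in knockout. All 4 knockout values lay below the wild types, lowest on knockout 2 and knockout 3, the arrays low in muscle markers. The difference was -0.67 (-1.06 to -0.28, limma adjusted p = 0.14). It was -0.31 without knockout 2 and knockout 3 and -0.23 with the muscle list mean as a covariate (limma adjusted p = 0.568 and 0.82). Without knockout 4 it passed (-0.80, limma adjusted p = 0.0262), as 1 of the 24 partners, where 8.85% of all genes passed.

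The collagen galactosyltransferase gene Colgalt1 read 0.24 higher (limma adjusted p = 0.198), the procollagen C-proteinase gene Bmp1 0.23 higher (limma adjusted p = 0.224) and the prolyl isomerase gene Ppib 0.20 higher (limma adjusted p = 0.35), none past the threshold. P4hb, the beta subunit of the collagen prolyl 4-hydroxylases, differed by 0.08 (-0.14 to 0.30, limma adjusted p = 0.739). The prolyl 3-hydroxylase complex genes P3h1 and Crtap differed by -0.01 and 0.13 (limma adjusted p = 0.989 and 0.649). The remaining lysyl oxidase genes of the list, Loxl3 and Loxl4, differed by 0.05 and 0.24 (limma adjusted p = 0.916 and 0.596). The sign of the partner median depended on the setting. It was -0.02 without knockout 2 and knockout 3 and -0.09 with the muscle list mean as a covariate. Without wild type 2 and knockout 2 together it was 0.05. As among the members, the partner list's mean was highest on knockout 2 (0.28) and wild type 2 (0.15).

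The substrates were also without a call. All 12 collagen and elastin genes were present on all 8 arrays, and none passed over all probe sets in limma. At an unadjusted p under 0.05 there was 1 of 12, against 19.6% of all genes. Their median difference was 0.05 (0.01 without knockout 2 and knockout 3, and -0.04 with the muscle covariate). Col1a1, the main collagen chain of bone, read 13.75, 13.60, 13.77 and 13.79 in wild type and 13.88, 13.81, 14.04 and 13.94 in knockout. Its groups did not overlap, as for 10% of all genes, and the difference was 0.19 (0.03 to 0.36, limma adjusted p = 0.214). Col5a2, Col11a2 and Col3a1 differed by 0.15, 0.16 and -0.06 (limma adjusted p = 0.472, 0.538 and 0.712). Col2a1, the main collagen of cartilage, averaged 14.94 in both genotypes and differed by -0.01 (-0.17 to 0.16, limma adjusted p = 0.982).

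HIF targets outside the members were mostly lower in estimate. None of 14 passed over all probe sets in limma, 8 had an unadjusted p under 0.05 and all 8 read lower, against 9.35% of all genes lower at that level, and the median difference was -0.35. Pgk1, a glycolysis enzyme gene, read 13.46, 13.60, 13.48 and 13.47 in wild type and 13.14, 12.96, 12.97 and 13.31 in knockout. The groups did not overlap, and knockout 2 and knockout 3 were the lowest (difference -0.41, limma adjusted p = 0.13). Pdk1, Ankrd37 and Bnip3 differed by -0.38, -0.33 and -0.45 (limma adjusted p = 0.152, 0.162 and 0.165). Of the members known as HIF targets in other cells, the brightest probe sets of P4ha1, P4ha2, Plod1, Plod2 and Lox differed by -0.01, -0.06, 0.03, -0.07 and 0.23, and the dimmer P4ha1 probe set by -0.29. The difference between the lists was not tested.

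Skeletal muscle markers, like most of the hypoxia list, were lower in estimate. All 10 muscle markers read lower in the knockout, with a median of -0.58. Of these, 9 were lower at an unadjusted p under 0.05, against 9.35% of all genes. The muscle list mean ran from 0.25 to 0.39 in wild type and from -0.98 to 0.23 in knockout. That of the hypoxia list ran from 0.09 to 0.15 and from -0.30 to -0.02. The muscle list was lowest on knockout 2 (-0.98, hypoxia list -0.15) and the hypoxia list on knockout 3 (-0.30, muscle list -0.50). The relation between these lists was not tested. With the muscle list mean as a covariate the hypoxia median was -0.13, and 2 of 14 genes were lower at an unadjusted p under 0.05, against 2.68% of all genes. Without knockout 2 and knockout 3 it was -0.15 with 3 of 14 lower, against 3.9% of all genes. In the same settings the median over the 9 brightest member probe sets was -0.20 with the covariate and -0.15 without those arrays, with all 9 below 0 in each. Without wild type 2 and knockout 2 together, the arrays where the members' mean was highest, it was -0.05 with 7 of 9 below 0. With the covariate the brightest probe sets of P4ha1, P4ha2, Plod1, Plod2 and Lox read -0.30, -0.31, -0.10, -0.34 and -0.01, none past the threshold. Without knockout 4, Pgk1, Ldha, Pdk1 and Bnip3 passed (-0.48, -0.52, -0.44 and -0.56, limma adjusted p = 0.0207, 0.0362, 0.0471 and 0.0408), where 8.85% of all genes passed.

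**Figure D4:**
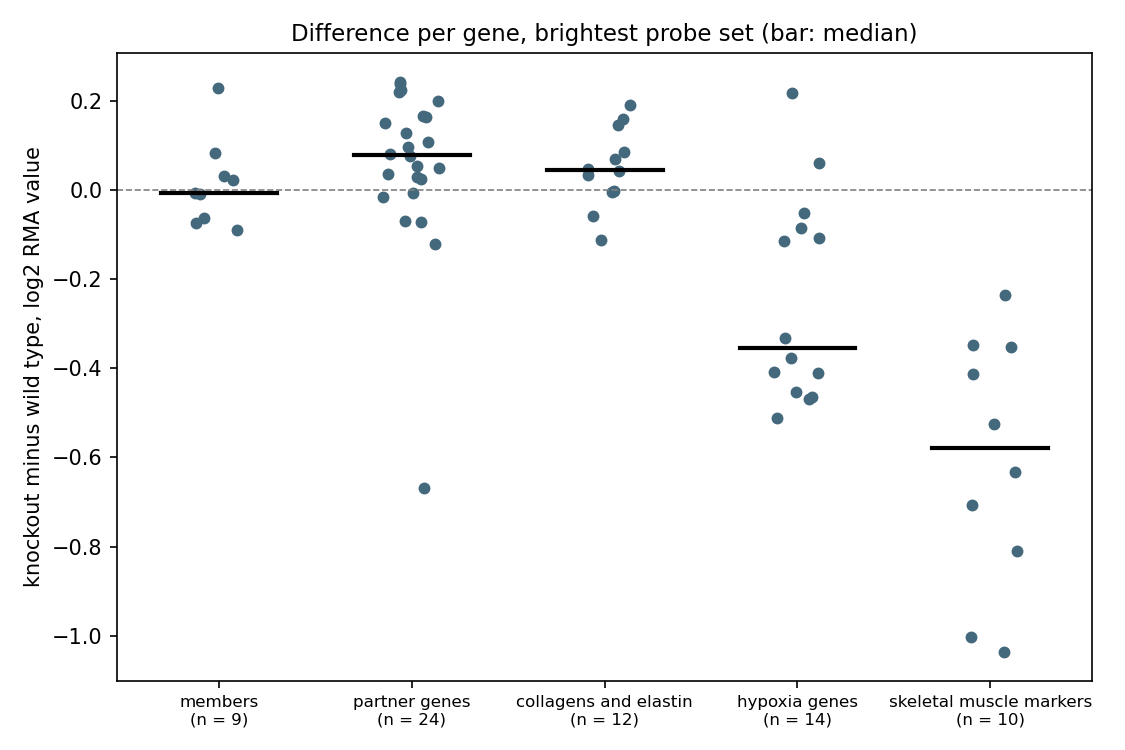
Difference between the genotypes (y axis, knockout minus wild type in log2 RMA value) for the brightest probe set of each gene, 1 point per gene, in the 9 members, 24 partner genes, 12 collagens and elastin, 14 hypoxia genes and 10 skeletal muscle markers. Bars are medians, at -0.01, 0.08, 0.05, -0.35 and -0.58 in that order, and no point passed the test over all probe sets.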

How the data were processed

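Total RNA of 8 samples was hybridised to 1 array each. The authors deposited 1 log2 value for each probe set and array, made with RMA per the submitters' processing notes. RMA includes quantile normalization, which would conceal a change shared by most genes. Per the file headers, the table also gives gene symbols, detection calls by an unnamed caller, p-values with and without adjustment, and log2 fold changes. The fold changes recomputed here matched the authors' deposited ones to within 4.8e-08. No symbol was given for 6889 probe sets, 63 had a date or a number in its place, and 64 rows without an identifier were not used.

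All 45037 probe sets were fitted with lmFit and eBayes of limma 3.58.1 (R 4.3.3) on genotype alone, two-sided and unfiltered, with Benjamini-Hochberg adjustment over all of them and a threshold of 0.05. The other gene lists were read from this fit by the probe set of highest mean per gene. Members and lists were chosen with earlier results of these data known. Genes named outside the members are those called or, failing that, the 4 of smallest p per pathway list, the 3 of most like pattern for 3 members, and, chosen after their values were seen, P4hb, P3h1, Crtap, Loxl3, Loxl4, Col2a1 and Ldha. The p-values cover the spread between these 8 samples alone, and the number of arrays limits the precision. Array numbers 1 to 4 carry no stated pairing, and no block was used. Each array had 57.6% to 60.1% of its probe sets called present. Alternatives were other normalizations, filters, weights, covariates, a replicate block and arrays left out. In data simulated with these levels and spreads over 45037 probe sets, limma recovered 2 of 50 changes of 0.25, 24 of 50 of 0.5, 40 of 50 of 0.75 and 50 of 50 of 1 log2, with 7 false calls, and 93.5% of the 95% intervals held the true change. The changes were put into random probe sets present on all 8 arrays, with noise independent between probe sets. The members' median SD was larger than that over all genes (0.235 beside 0.127), so this recovery need not hold for them. Promoter windows are from RefSeq, GRCm38.p6.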

Additional observations from a re-analysis of the deposited data

Results flagged for a closer look

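In 2 of 38 groups of 4 arrays tested over the member and Anp32a probe sets, 1 array lay far from the other 3, where chance gives about 1 in 20. For the dimmer Plod2 probe set wild type 2 read 10.94 and the other wild types 10.40 to 10.49, a gap of 0.832 of the group's range. For the dimmer Loxl1 probe set, absent on all 8 arrays, wild type 3 read 7.86 and the others 7.51 to 7.55 (0.883 of the range).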

How the results depend on the processing

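Each of the 16 member probe sets stayed without a call under 20 alternatives, in the 310 values these gave; the lowest limma adjusted p was 0.15, for the dimmest Lox probe set with array weights. Of the 310 differences 51 had the other sign than in the plain comparison, for 13 of the 16 probe sets; none of these was called in either. The dimmest Lox probe set stayed above 0, and the dimmer P4ha1 probe set (-0.57 to -0.14) and P4ha3 (-0.31 to -0.02) below 0. The brightest Lox probe set ran from -0.01 to 0.35. Filtering to probe sets present on at least 4 arrays left 13 of the 16. The count over the whole table, 24, was 41 with array weights, 11 at gene level and also 11 with the erythroid mean as a covariate, 5 with the muscle mean, 7 without knockout 2 and knockout 3, and 5 without wild type 2 and knockout 2 (added after the data were seen). Leaving out 1 array gave 9 to 3579. The cause was not tested. The array numbers as a replicate block gave 21 over the whole table and 0 of the 16. Same-numbered arrays deviated together with r = 0.0652, 0.511, -0.339 and 0.303. Wild types 2 and 4 correlated best with the knockout of their own number, and wild types 1 and 3 did not. The labels state no pairing, and whether same-numbered arrays share a batch cannot be told from these values. In simulated data changes of 0.25 log2 were mostly missed at this number of arrays.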
